A study of Drosophila melanogaster with 4 samples.

Results

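The 697 Pol II regions of the X chromosome of Drosophila melanogaster embryos are described here. They are the entries placed on X, and not on the heterochromatic scaffold XHet, in a list of 4366 regions enriched for RNA polymerase II (Pol II) over the whole genome. The list comes from chromatin immunoprecipitation and sequencing (ChIP-seq), in which DNA crosslinked to a protein is pulled down with an antibody and sequenced. Whole embryos of mixed age, 0 to 24 h after laying, were used, and 2 chromatin extractions, called replicate 1 and replicate 2, were each precipitated with the mouse monoclonal antibody CTD4H8 and given a list of their own. The 2 input samples of the series, DNA that was not precipitated, are outside the analysis, so no background level is given beside the values. Whether the authors' scores already take an input into account is not known. The labels name no strain, genotype or sex, and a mixed collection averages over stages and tissues.

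Pol II transcribes all protein-coding genes. Its largest subunit ends in a tail of repeated heptads, the carboxyl-terminal domain, whose phosphorylation changes as the enzyme moves from the promoter into the gene. The antibody was raised against a phosphorylated peptide of these repeats. In fly embryos Pol II is well known to halt shortly after initiation at many developmental and heat-shock genes, which gives narrow peaks of Pol II close to start sites, whereas heavily transcribed genes carry Pol II along their bodies. The X is the chromosome on which male flies compensate for having a single copy: the MSL complex, with its roX RNAs, coats the male X, acetylates histone H4 and raises transcription. These points are background and were not measured here.

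The replicate 1 list held 910 regions on X, the replicate 2 list 1505 and the whole-series list 697, which is 31.1 regions per Mb (exact Poisson 95% interval 28.8 to 33.5). The large autosomal arms had 34.8 (2L), 41.7 (2R), 38.5 (3L) and 32.0 (3R) per Mb, of which only the last falls within the interval for X. Every one of the 697 overlapped a region of both replicates, and ran from the first to the last base of the replicate regions it joined. For 658 of them that was a single region of each replicate, 32 joined several regions of replicate 1 and 7 several of replicate 2. Positions follow FlyBase r5.1, counted from 1. Regions are named by position and not by gene, since the available gene table belongs to Release 6 and no conversion was made. The authors' score of a region has no named unit and may not share a scale between chromosomes, so scores are compared within X. Other arms enter through counts of regions, ranks and score ties within each arm, widths, overlaps and shares of regions by the ratio of their replicate scores. Each extraction gave a single list, regions of a list are not independent replicates, and no test of X against other arms was made, so nothing below is called particular to X. Read counts were not analysed here, so depth is unknown; Wilson intervals of shares and Poisson intervals of counts cover counting error only.

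The Pol II regions were spread along nearly all of X, and thinned out towards the centromere. Over the 22 full windows of 1 Mb, the whole-series list held 16 to 52 regions per window with a median of 32.5, replicate 1 held 21 to 61 (median 41) and replicate 2 held 34 to 100 (median 64.5). The fullest window, from 6000001 to 7000000, held 52 whole-series regions (exact Poisson 95% interval 38.8 to 68.2), with 61 in replicate 1 and 99 in replicate 2. The windows from 11000001 and from 13000001 followed, with 41 whole-series regions each (29.4 to 55.6). Their intervals overlap that of the fullest window, so the order of these 3 windows is not resolved by the counts.

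The emptiest windows were the last full ones before the centromere. The window from 21000001 to 22000000 held 16 whole-series regions (exact Poisson 95% interval 9.15 to 26.0), 21 in replicate 1 and 34 in replicate 2. The window from 20000001 to 21000000 held 18 (10.7 to 28.4), 26 and 42. The next was the window from 4000001 to 5000000 with 22 whole-series regions, a number also found from 7000001 to 8000000. The last windows were low in both extractions, and the regions in them were wide: the median width was 606.5 bp from 21000001 and 433.5 bp from 20000001, against a median of 305 bp over the windows. Wide regions were not confined to this end, since the window from 7000001 had a median of 460.5 bp. A low number of called regions does not by itself show less Pol II.

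**Figure D1:**
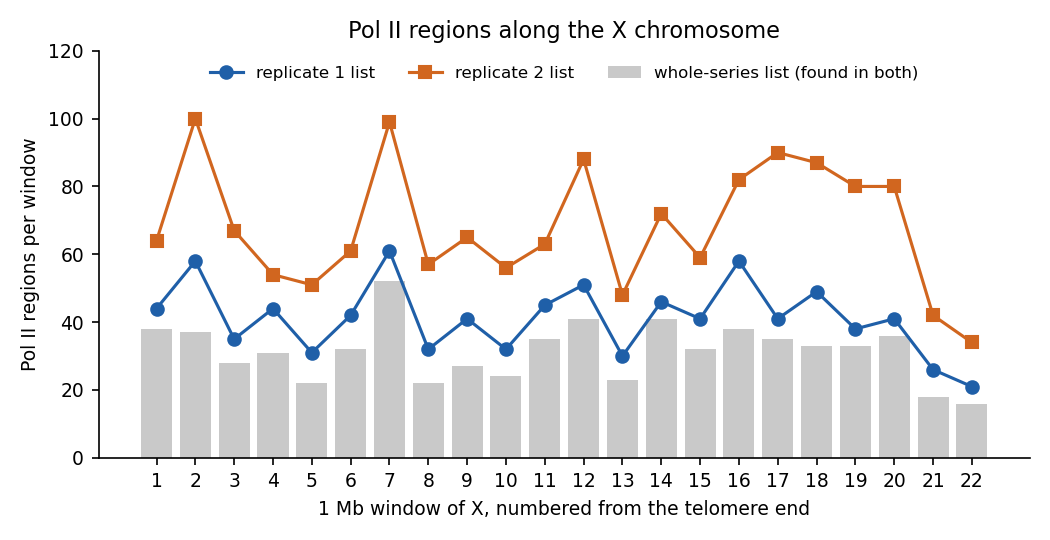
Pol II regions per 1 Mb window of X (vertical axis, number of regions) against window number from the telomere end. Bars are the whole-series list, circles replicate 1 and squares replicate 2; all 3 lists fall in windows 21 and 22, where the whole-series list holds 18 and 16 regions.

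Windows full in one extraction tended to be full in the other, with exceptions in how many regions they shared. Across the 22 windows, which are not independent replicates, the number of replicate 1 regions and the number of replicate 2 regions had a Spearman rho of 0.77. Replicate 2 was fullest from 1000001 to 2000000, with 100 regions, where replicate 1 held 58 and the whole-series list 37, the lowest yield of shared regions, at 37 per 100 replicate 2 regions. The highest yield, 59.4 per 100, was in the first Mb at the telomere end, with 38 whole-series regions among 64 of replicate 2. A window with many replicate 2 regions was thus not always one with many shared regions.

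The number of regions in a window was not related to their scores. The median whole-series score per window ran from 2.45 to 4.33, and its Spearman rho with the number of regions was 0.02 across the 22 windows. The highest median, 4.33, was from 2000001 to 3000000, a window with 28 regions, and the lowest, 2.45, from 7000001 to 8000000. The 70 highest-scoring regions of X, the top 10% by rank, were most numerous from 10000001 to 11000000, with 9. None of them lay in the windows from 7000001, 13000001 or 20000001, of which the second is one of the 3 fullest. The median score per window was related between the extractions, with a Spearman rho of 0.64.

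Some long stretches held no shared region. The longest lay between 21258985 and 21843874, a gap of 584.9 kb with 1 region in replicate 1 and 2 in replicate 2, none of them shared. The second, of 355.03 kb between 22059291 and 22414326, held none in replicate 1 and 3 in replicate 2. Both lie in the thinly filled end of X near the centromere. The third, of 344.4 kb between 13724369 and 14068784, lies well inside the arm and held no region in any list. For comparison, neighbouring whole-series regions on X were a median of 13.4 kb apart (quartiles 4.03 and 34.8 kb).

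The highest-scoring region of X was broad and near a second of the same kind. It spanned 10108951 to 10110207, 1257 bp, and scored 9.72 in replicate 1 and 18.5 in replicate 2 (mean 14.1 ± 6.24, SD, n = 2), which gave it rank 5 of 697 in replicate 1 and rank 1 in replicate 2. A region at 10125182 to 10126484, 1303 bp wide and 14974 bp further on, scored 5.98 and 13.3 (mean 9.66 ± 5.21, SD, n = 2) and had rank 4 by whole-series score. Both were nearly as wide in replicate 1 (1245 and 1296 bp) as in replicate 2 (1257 and 1291 bp), while their scores were higher in replicate 2. Between them lay 1 shared region, at 10110530 to 10110744, with scores of 8.31 in replicate 1 and 4.39 in replicate 2, the reverse order.

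The other 8 of the 10 highest-scoring regions were narrow, under 350 bp. The region at 1930355 to 1930596 (242 bp) scored 6.40 in replicate 1 and 15.5 in replicate 2. The region at 5794814 to 5795054 (241 bp) scored 12.9 and 7.27, and that at 12553361 to 12553665 (305 bp) scored 10.1 and 7.74. These 2 scored higher in replicate 1, as did a further narrow one described below, and the other 7 of the 10 scored higher in replicate 2. The region at 11811174 to 11811360 (187 bp) scored 5.95 and 10.98, and the region at 393925 to 394143 (219 bp) 4.69 and 12.2. The replicates were closest at 12553361 (mean 8.93 ± 1.69, SD, n = 2), followed by the last 2, at 19215954 to 19216188 (235 bp; 6.95 and 9.54, mean 8.24 ± 1.83, SD, n = 2) and at 2017191 to 2017437 (247 bp; 6.79 and 9.65, mean 8.22 ± 2.02, SD, n = 2). With an SD of 1.69 or more for each of the 10 and whole-series scores of 8.22 to 10.9 from rank 2 to rank 10, the order within this set is not resolved by the replicates.

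**Figure D2:**
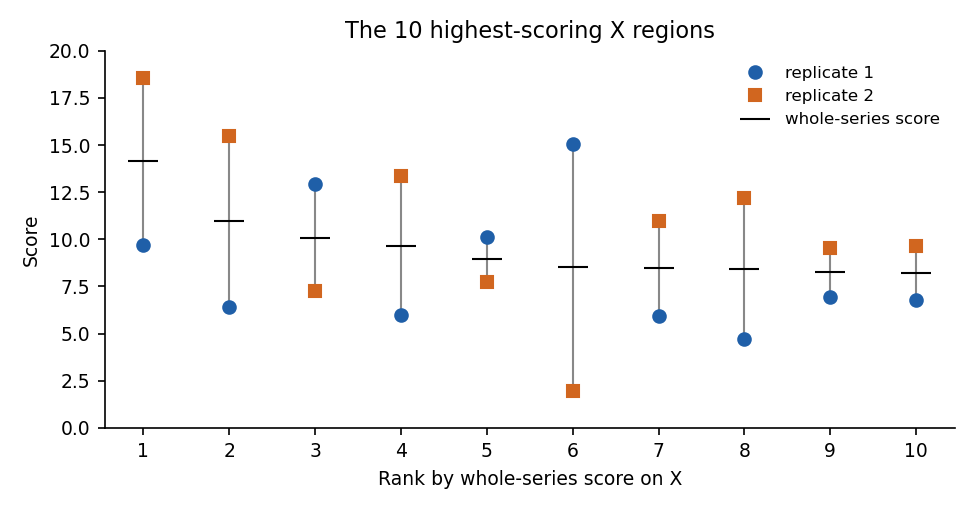
Score (vertical axis, authors' unit) of the 10 highest-ranking X regions in replicate 1 (circles) and replicate 2 (squares), with the whole-series score as a bar, against rank. The region of rank 6 has 15.1 in replicate 1 and 1.98 in replicate 2, the widest spread of the 10.

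The region of rank 6 has its place from replicate 1. At 14068784 to 14068875, 92 bp, it scored 15.1 in replicate 1, the highest of the 697, and 1.98 in replicate 2, which placed it at rank 608 there (mean 8.51 ± 9.24, SD, n = 2). Its replicate 1 part was 17 bp wide, and it marks the far end of the 344.4 kb gap described above. Of the 10 regions, 4 were among the 10 highest of replicate 1 and 5 among the 10 highest of replicate 2, with 1, the leading region, in both. Over the top 10% of ranks, 22 of the 70 highest regions of replicate 1 (31.4%, Wilson 95% interval 21.8% to 43.0%) were also among the 70 highest of replicate 2. The autosomal arms had 30.3% (3R), 33.0% (2R), 36.3% (2L) and 39.1% (3L), all within the interval for X. In turn, 8 of the 70 highest of replicate 1 (11.4%, 5.91% to 21.0%) lay in the lower 50% of replicate 2. On the autosomal arms this was 5.00% (2L), 5.43% (3L), 5.68% (2R) and 7.87% (3R). Of the 70 highest of replicate 2, 10 (14.3%, 7.95% to 24.3%) lay in the lower 50% of replicate 1. Here the autosomal arms had 7.50% (2L), 7.87% (3R), 12.0% (3L) and 12.5% (2R). Both shares were highest on X, from small counts.

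Over all 697 regions the scores of both extractions were related, with wide scatter. The Spearman rho was 0.52, against 0.52 on 3L, 0.55 on 3R, 0.57 on 2R and 0.62 on 2L; each is across regions that share a library within an extraction and are not replicates. The log2 ratio of the replicate 2 score over the replicate 1 score had a median of 0.27 (quartiles -0.13 and 0.66) and an SD of 0.64 over regions. A total of 474 regions (68.0%) scored higher in replicate 2. The autosomal arms had 59.2% (3R), 63.5% (3L), 64.0% (2R) and 68.25% (2L). The ratio was above 1 on the log2 scale for 72 regions and below -1 for 18. Together these were 12.9% of the X regions (Wilson interval 10.6% to 15.6%). The same share was 8.84% on 3R, 11.2% on 2R, 11.4% on 2L and 11.9% on 3L, of which only the first lies outside the interval for X. Whether both replicates' scores have the same scale is not known, so a shift of the median is not read as more Pol II.

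**Figure D3:**
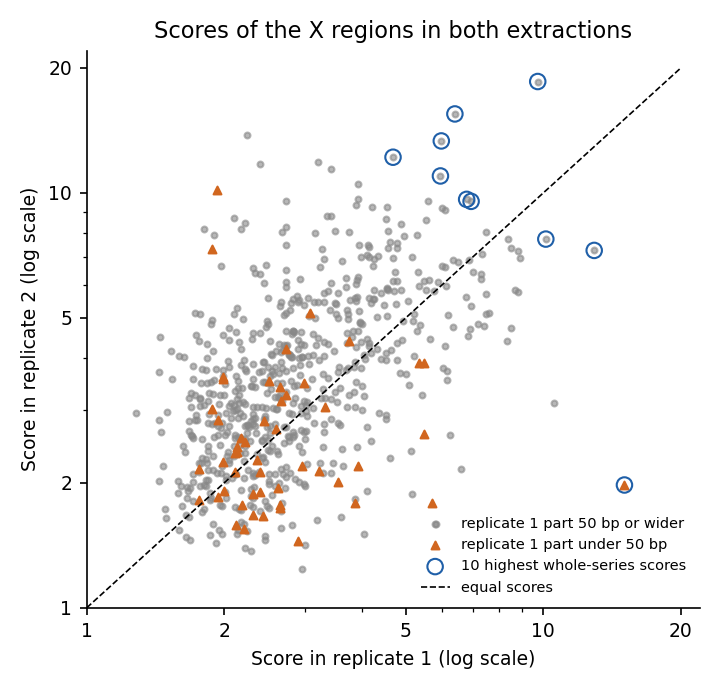
Score in replicate 2 against score in replicate 1 (both axes logarithmic, authors' unit) for the 697 X regions; the dashed line marks equal scores, triangles are regions whose replicate 1 part is under 50 bp, and rings mark the 10 highest whole-series scores. Points scatter widely about a rising trend (Spearman rho 0.52), and the triangles show no trend of their own (rho 0.04).

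Agreement rose with the width of the replicate 1 part. Where the replicate 1 part was at least 200 bp wide, rho was 0.72 over 278 regions, and from 100 to under 200 bp it was 0.47 over 292. From 50 to 99 bp it was 0.03 over 76 regions, and under 50 bp 0.04 over 51. The autosomal arms had 0.71 to 0.74 at 200 bp or more, and from 50 to 99 bp they had -0.0026 (2L) to 0.14 (3R). Under 50 bp, where 48 to 63 regions an arm were left, they had 0.02 (3L) to 0.30 (2L). Regions with a narrow replicate 1 part thus showed next to no relation between the scores on X, and a weak one at most on these arms.

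The regions at both extremes of the ratio had replicate 1 parts of various widths. The highest ratio, 2.62 on the log2 scale, was at 19956631 to 19956816, with a score of 2.25 in replicate 1, where it ranked 475, and 13.8 in replicate 2, where it was the third highest; its replicate 1 part was 148 bp wide. The next were at 411888 to 411959 (1.93 and 10.2, with a replicate 1 part of 14 bp) and at 2479206 to 2479414 (2.39 and 11.7, with a part of 123 bp). The remaining ones of the 5 highest were at 2304801 to 2304987 (1.81 and 8.18, part of 80 bp) and at 18373370 to 18373548 (1.90 and 7.93, part of 119 bp).

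At the other end, the lowest ratio, -2.93, was that of the 92 bp region at 14068784. It was followed by the region at 15463182 to 15463309, with 5.81 in replicate 1 and 1.60 in replicate 2 and a replicate 1 part of 122 bp. The region at 6173069 to 6173668 scored 10.6, the third highest of replicate 1, and 3.11; its replicate 1 part covered 169 of 600 bp. The region at 17588678 to 17588786 scored 5.70 and 1.78 and its replicate 1 part was 2 bp wide, and the region at 11901050 to 11901416 scored 6.60 and 2.16, with a part of 158 bp. Of these 5, 2 had a replicate 1 part under 20 bp, and the other 3 had one over 100 bp.

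Pol II regions on X were mostly narrow. Replicate 1 regions had a median width of 149 bp with quartiles at 84 and 230 bp. In replicate 2 the median was 203 bp and the quartiles 112 and 370 bp. Whole-series regions, which join the outer ends, had a median of 308 bp and quartiles of 206 and 538 bp. Since libraries were selected for 150 to 200 bp and the caller's threshold is unknown, widths describe the called stretches and not how far Pol II reached. Replicate 2 set both ends of 569 of the 697 regions and replicate 1 both ends of 22. On the autosomal arms replicate 2 set both ends of 605 of 800 regions (2L), 692 of 881 (2R), 734 of 924 (3L) and 719 of 894 (3R). The replicate 1 part covered a median of 64.7% of the region on X (quartiles 39.9% and 82.3%), against medians of 66.6% (3L) to 71.0% (2L). For the 658 regions that join a single region of each replicate, the centres were a median of 20.3 bp apart (quartiles 7.50 and 70.5 bp). Since the 2 replicate regions overlap in every case, some closeness is built in, and how much was not measured. The centres lay within 50 bp for 67.5% (Wilson 95% interval 63.8% to 71.0%). The same share was 70.8% on 3L, 71.6% on 2R, 71.7% on 3R and 72.8% on 2L, all above the value for X; the first falls within its interval and the others lie above it.

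Regions of middle width had the highest scores. Split into 5 classes of equal size by width, the regions of 191 to 249 bp had a median score rank at the percentile 65.7 of X and those of 250 to 366 bp at 55.3. The narrowest class, 43 to 191 bp, stood at 48.8, the class of 367 to 620 bp at 38.7 and the widest, 622 to 2529 bp, at 37.6. The autosomal arms also peaked in the second or the third class, with 62.8 to 70.1 in the second. In the narrowest class they had 36.0 (2R) to 40.9 (3R), below X, and in the widest 44.3 (3R) to 47.3 (3L), above X. Over all regions the Spearman rho of width and score was -0.15 on X, against -0.0036 (3L) to -0.04 (3R) on the large autosomal arms. The tie was not the same in the separate lists, where rho was 0.16 in replicate 1 and 0.05 in replicate 2 on X, lower than on the autosomal arms in replicate 1 (0.19 to 0.33) but not in replicate 2 (0.04 to 0.14).

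**Figure D4:**
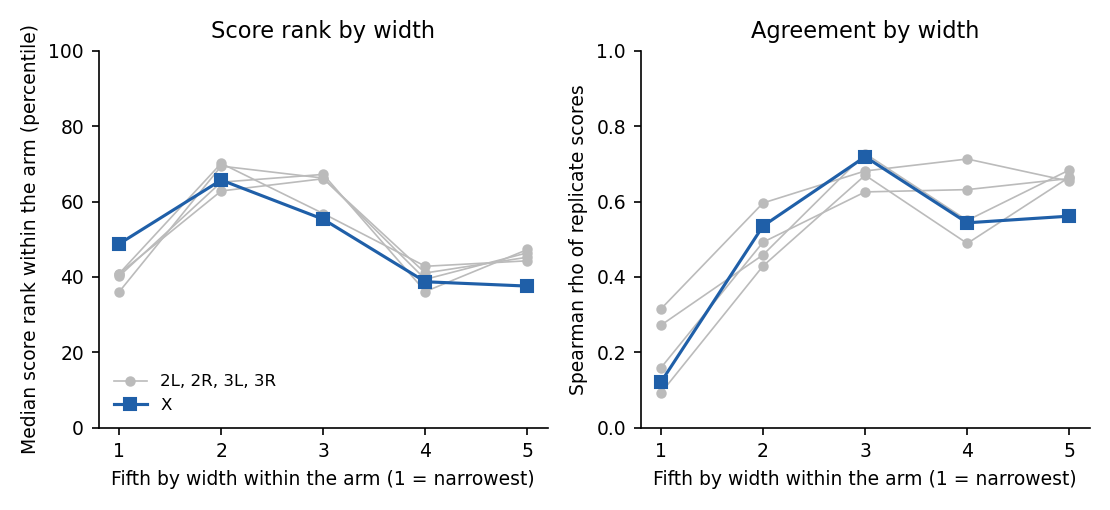
Left, median score rank within an arm (percentile) and, right, Spearman rho of the replicate scores, for 5 classes of whole-series regions of equal size by width (1 is the narrowest); squares are X and grey circles the arms 2L, 2R, 3L and 3R. On X the rank is highest in class 2 (65.7) and lowest in class 5 (37.6), and rho runs from 0.12 in class 1 to 0.72 in class 3.

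On X the replicates also agreed most on the score of regions of middle width. Within the width classes, rho on X was 0.12 in the narrowest, 0.54 in the second, 0.72 in the middle one, 0.54 in the next and 0.56 in the widest. The middle class was also the highest on 2R (0.73) and 3L (0.67). On 2L the highest was the next wider class (0.71) and on 3R the widest (0.66). The narrowest class was the lowest of the 5 on the autosomal arms too, with 0.09 on 3L, 0.16 on 3R, 0.27 on 2R and 0.32 on 2L. In the widest class the autosomal arms had 0.65 to 0.68, above the 0.56 of X.

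Broad Pol II regions were a small part of X. At least 1000 bp was reached by 46 regions (6.60%, Wilson 95% interval 4.98% to 8.69%), against 7.10% of the whole-series regions of all chromosomes, which is within the interval. In the replicate lists, 13 of 910 (1.43%) and 45 of 1505 (2.99%) were as wide. They were scattered: 20 of the 22 windows held at least 1, and no window more than 5. The widest X region, 2529 bp at 656789 to 659317, was a single region of 2462 bp in replicate 1 and 2 regions in replicate 2, and scored 3.06 and 4.04. It is narrower than the widest of 3L (2693 bp), 3R (3256 bp), 2L (4019 bp) and 2R (5172 bp).

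Of the next 4 widest regions, 3 scored alike in both extractions. The region at 5796685 to 5798996 (2312 bp) scored 5.18 in replicate 1 and 4.91 in replicate 2 (mean 5.05 ± 0.19, SD, n = 2). The region at 1375553 to 1377463 (1911 bp) scored 5.62 and 6.17 (mean 5.89 ± 0.39, SD, n = 2), and that at 11696657 to 11698486 (1830 bp) 4.47 and 5.36 (mean 4.91 ± 0.63, SD, n = 2). The region at 14368042 to 14369890 (1849 bp) was the exception, with 3.94 and 7.47 (mean 5.70 ± 2.50, SD, n = 2). It was made up of 3 separate regions in replicate 1.

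Some X regions stood in short runs, that is, close to several neighbours. With neighbours less than 1000 bp apart, X had 16 runs of 3 or more regions, holding 53 of the 697 (7.60%, Wilson 95% interval 5.86% to 9.81%), against 10.2% of the regions of all chromosomes. The autosomal arms had 7.72% (3R), 9.88% (2L), 11.8% (2R) and 12.6% (3L). In the replicate 2 list the order was another: 354 of 1505 X regions (23.5%, 21.4% to 25.7%) were in such runs, against 19.9% on 2R, 21.0% on 3R, 21.8% on 2L and 25.4% on 3L. In replicate 1 it was 139 of 910 (15.3%, 13.1% to 17.8%), with 16.1% to 23.6% on the autosomal arms. The low share of X in the whole-series list was thus not shared by replicate 2.

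The runs with the most regions held 4 each. That from 5671388 to 5675667 had 3329 of its 4280 bp covered, and its members' whole-series scores of 2.71 to 3.83 lay within a factor of 1.41. The run from 11695828 to 11700527 included the 1830 bp region named above and had whole-series scores of 2.85 to 4.91. The run from 9046244 to 9050779 had whole-series scores of 1.69 to 3.17. Members of a run were thus not of equal rank, and none of these runs held a region of the 10 highest. The remaining ones, from 11019218 to 11023170 and from 17040710 to 17044395, had whole-series scores of 2.99 to 4.59 and 2.20 to 4.05.

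Another run, singled out after its values were seen, joined a narrow, high-scoring region with wider ones of lower score. From 5794814 to 5798996 it held the third-ranking region of X, 241 bp wide, then a region of 966 bp at 5795435 to 5796400, and then the 2312 bp region described above. The narrow one scored 12.9 in replicate 1 and 7.27 in replicate 2, the next 4.32 and 4.20, and the broad one 5.18 and 4.91. The narrow region was the highest of the 3 in both extractions.

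Most high-scoring X regions of either extraction were found in the other, and narrow ones often were not. With an overlap of 1 bp or more counted, 732 of the 910 replicate 1 regions met one of replicate 2 (80.4%, Wilson 95% interval 77.7% to 82.9%), against 80.0% over all chromosomes. Of the 1505 replicate 2 regions, 704 met one of replicate 1 (46.8%, 44.3% to 49.3%), against 49.9% over all chromosomes. The share for replicate 1 was close to the background. That for replicate 2 was lower than on 2L (50.1%), 3R (51.0%), 3L (51.7%) and 2R (53.4%), each above the interval for X.

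Shared regions tended to be wider than unshared ones, though the widths overlapped. Median widths in replicate 1 were 168 bp for the 732 shared and 42 bp for the 178 unshared regions, and in replicate 2 they were 291 bp for the 704 shared and 134 bp for the 801 unshared ones. In 5 classes of equal size by width, the share of replicate 1 regions that met replicate 2 was 39.0% in the narrowest and 74.7% in the next, and 95.1%, 97.3% and 96.2% in the wider ones. For replicate 2 it was 6.64%, 27.6%, 62.5%, 64.5% and 72.8%. Some rise with width follows from the overlap rule itself; its size was not measured.

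**Figure D5:**
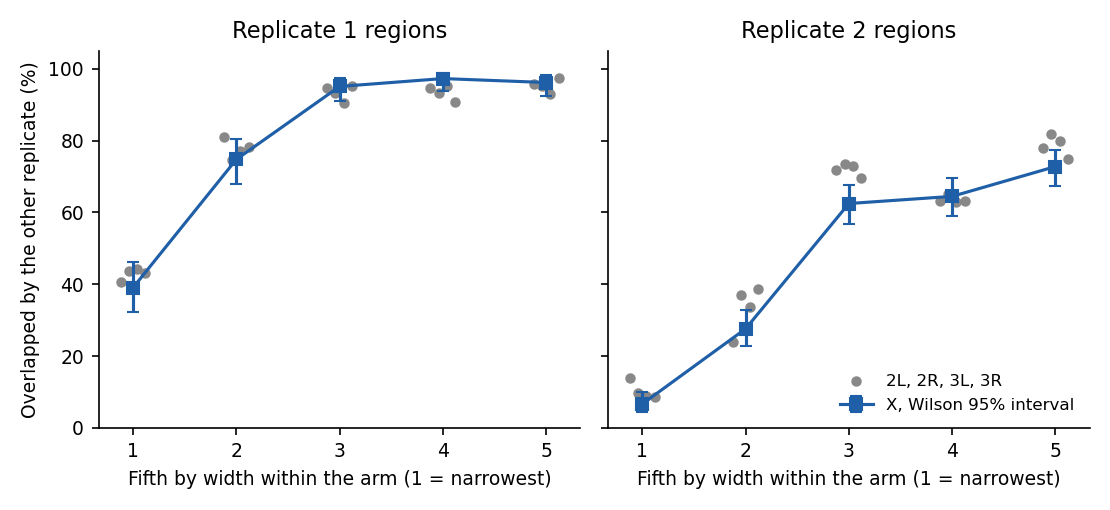
Share of regions overlapped by the other replicate (vertical axis, percent) in 5 classes of equal size by width within each arm (1 is the narrowest), for replicate 1 (left) and replicate 2 (right). Squares with Wilson 95% intervals are X and grey circles the arms 2L, 2R, 3L and 3R; on X the share rises from 39.0% to 96.2% in replicate 1 and from 6.64% to 72.8% in replicate 2.

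By score rank within X, the highest class stood out in both lists. In replicate 1 the share was 92.9% in the highest of 5 classes by score (Wilson 95% interval 88.2% to 95.8%), and 79.1%, 72.0%, 75.3% and 83.0% in the others from the lowest up. In that highest class of replicate 1 the autosomal arms had 94.2% (3L), 94.5% (3R), 96.6% (2R) and 97.6% (2L), the last 2 above the interval for X. In replicate 2 the share on X rose with each class, from 23.6% through 27.9%, 44.5% and 59.1% to 78.7% (73.8% to 83.0%). The autosomal arms had 83.7% to 89.2% in the highest class of replicate 2, above the interval for X. In the top 10% by score, 127 of 150 replicate 2 regions on X met replicate 1 (84.7%, 78.0% to 89.6%), against 91.0% (2R), 90.8% (2L), 89.9% (3R) and 89.5% (3L).

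The replicate 2 list was longer than that of replicate 1 by more on X than on 2L, 2R, 3L and 3R. Replicate 2 held 1.65 regions for each one of replicate 1 on X, against 1.43 on 2R, 1.49 on 3L, 1.52 on 3R and 1.56 on 2L. On X the replicate 1 regions covered 183.7 kb at a mean width of 202 bp and the replicate 2 regions 435.0 kb at a mean width of 289 bp, a ratio of 2.37 in covered length. On the autosomal arms that ratio was 1.93 (2R), 1.98 (2L), 1.99 (3L) and 2.04 (3R). Accordingly X held 16.5% of the regions of these 5 arms in replicate 1, 17.9% in replicate 2 and 16.6% in the whole-series list.

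Part of the unshared regions lay close to a region of the other list. Of the 178 unshared replicate 1 regions, 88 (49.4%, Wilson 95% interval 42.2% to 56.7%) lay within 1 kb of a replicate 2 region, at a median distance of 1.00 kb. The autosomal arms had 48.0% (3R), 51.8% (2L), 56.0% (2R) and 63.0% (3L), of which the last lies above the interval for X. Of the 801 unshared replicate 2 regions, 215 (26.8%, 23.9% to 30.0%) lay within 1 kb of a replicate 1 region, at a median distance of 3.30 kb. The autosomal arms had 27.6% (3R), 27.7% (2L), 29.9% (2R) and 33.9% (3L), the last again above the interval for X.

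The highest-scoring unshared regions were mostly very narrow. In replicate 1 the highest, at 15398318 to 15398324, was 7 bp wide with a score of 11.6, the third highest of its list, and lay 287 bp from a replicate 2 region. It was followed by 8986356 to 8986388 (score 6.38), 20263237 to 20263287 (5.70), 10838021 to 10838024 (4.79) and 17558199 to 17558270 (4.67), at 4 to 72 bp wide. All 5 were under 100 bp, and 4 of the 100 highest of replicate 1 were unshared.

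In replicate 2 the highest unshared region, at 7946293 to 7946311, was 19 bp wide and scored 16.5, the second highest of its list; it lay 339 bp from a replicate 1 region. The region at 3149998 to 3150234 was wider, 237 bp, scored 8.65 and had no replicate 1 region within 33105 bp. The region at 10451283 to 10451484, 202 bp wide, scored 8.55 and lay 10400 bp from the nearest. These last 2 have the width of a typical shared region and stand apart from replicate 1 regions. The other 2 were narrower, at 11493841 to 11493907 (8.79) and at 13200376 to 13200454 (8.60). In all, 15 of the 100 highest of replicate 2 were unshared, against 4 in replicate 1.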

How the data were processed

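Pol II ChIP-seq region lists of 2 chromatin extractions and of the whole series were analysed. Per the labels, libraries were selected for 150 to 200 bp and sequenced single-end with reads of 36 nt. Per the file headers, positions are on FlyBase r5.1; the lists name PeakSeq as the caller. Aligner, filters, control and threshold: not given in the sources used here. The authors' deposited score per region has no stated unit. Regions were called separately per replicate, and absence from a list does not show absence of Pol II.

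Regions placed on X were taken from each list. Overlap was at least 1 bp, and the replicate score of a whole-series region was the mean score of the replicate regions it overlaps. The authors' whole-series score was the mean of these 2 values within 0.0001 for 690 of 697 X regions. Windows count regions by their centre, and lengths run to the furthest region end. Shares have Wilson 95% intervals. No test was made. Regions named are the 10 highest-scoring, the 5 widest, the 5 at each end of the log2 score ratio, the 5 highest unshared per replicate, the 5 longest runs, 3 fullest and 3 emptiest windows and 3 longest gaps; other regions were singled out after their values were seen. The members, classes and lists were chosen with earlier results of these data known, and the classes by width, score and replicate 1 part after these lists were read. Tools were SciPy 1.17.1, pandas 2.3.3, NumPy 2.4.6 and Matplotlib 3.10.9 under Python 3.11.15, and the overlap, run and rank routines were tested on simulated data.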

Additional observations from a re-analysis of the deposited data

How the results depend on the processing

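Of 32 alternatives for 9 results, 11 left the value in place, 21 moved it and none reversed it. A count stood as in place within 1.5 times, which takes in the 910 regions of replicate 1 against 697, and other values within their 95% interval, so the tally mixes criteria of unlike strictness. Requiring at least 50% of both regions, for a whole-series region against each replicate, left 434 X regions, with a rho of 0.59. Between the replicate lists, the same limit left 46.8% of replicate 1 and 28.3% of replicate 2 overlapped. With both lists reduced to their upper 50% by score, so that a region could lose its partner, the overlaps were 71.7% and 42.4%. This does not show less overlap of high-scoring regions, whose share against the full list was higher. Over the 252 regions in the upper 50% of both replicates, rho was 0.34, and a cut on both scores can by itself lower rho. In the upper 50% by whole-series score, the median log2 ratio was 0.45 and the median width 258 bp. With both lists reduced to regions of at least 100 bp, a region could again lose its partner. The overlaps were then 92.5% of replicate 1 and 47.8% of replicate 2. The latter does not show that width mattered little in replicate 2. Against the full replicate 1 list, its share rose from 6.64% in the narrowest of 5 width classes to 72.8% in the widest. Broad regions were 0.287% at 2000 bp, and runs numbered 8 with a gap under 500 bp, both stricter limits. With either replicate list alone, X held 910 to 1505 regions with median widths of 149 to 203 bp, 1.43% to 2.99% of them broad, 38 to 97 runs and 41 to 64.5 regions per 1 Mb window; these lists hold unshared regions and do not join outer ends. The cause of the other changes was not tested. Depth is unknown, which limits how far the longer replicate 2 list can be read.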

Other observations

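Close neighbours on X were hardly more alike in score rank than distant ones. The median difference in whole-series score rank was 26.1 percentile points for the 93 pairs of neighbouring regions less than 1 kb apart, 26.0 for the 199 pairs at 1 to 10 kb and 27.5 for the 404 pairs at 10 kb or more. On the autosomal arms the same difference was 22.6 (2R) to 25.4 (2L) under 1 kb and 29.3 (2L) to 29.9 (3L) at 10 kb or more. These are descriptions across pairs of regions, with no test.

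Exact ties of score were common within a replicate. On X, 515 of the 910 replicate 1 regions (56.6%) and 704 of the 1505 replicate 2 regions (46.8%) had a score that another X region of the same list also had, whereas no whole-series score on X was held by more than a single region. Ties within an arm were also common on the autosomal arms. There they took in 51.3% (2L) to 56.5% (3L) of replicate 1 regions and 38.6% (2R) to 45.5% (3L) of replicate 2 regions. Ranks within a replicate list therefore hold many ties.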
